A study of Mus musculus with 6 samples.

Results

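The genes described here are *Fos*, *Fosb*, *Jun*, *Junb*, *Jund*, *Egr1*, *Ier2*, *Ier3*, *Dusp1* and *Atf3*, 10 immediate early and stress-responsive genes that cell dissociation and sorting can induce. They were taken by exact mouse symbol from the 18324 gene rows of the count table. All 10 have a row, and 9 are among the 11324 genes that passed the filter on low counts, *Fosb* being the exception. RNA came from cultured B16-F10 cells, a pigmented mouse melanoma line, which were sorted by the light scatter of their melanin into a high-pigmented fraction (HPC) and a low-pigmented fraction (LPC). Each fraction has 3 libraries, and the labels name no other treatment. A suffix in the titles joins 1 HPC and 1 LPC library, and these are called pairs 1, 2 and 3. The labels do not say what the suffix marks, nor whether the libraries of a group came from separate cultures, so p values measure the spread between these libraries, which may be partly technical. Both populations passed through the sorter and no unsorted cells were analysed here, so the level of these genes before sorting is not known. B16-F10 is 1 cell line, and in such bulk RNA a change in the number of expressing cells and in the RNA per cell cannot be told apart.

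Immediate early genes are transcribed within minutes of a growth factor, stress or mechanical signal, from transcription factors already present in the cell, and their mRNAs are short-lived. Fos and Jun proteins pair through leucine zippers to form AP-1, the ERK and JNK kinases drive its production, and feedback genes such as *Dusp1* shut the kinases off. In melanocytic cells the ERK pathway is also active downstream of growth factor receptors and RAF kinases, so some expression of these genes does not need a stress signal.

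Libraries held 3819605 to 7311131 counts on genes. Pair 2 stood apart in composition: the single row RP23-81C12.3 took 53.9% and 27.1% of the gene counts in its HPC and LPC libraries, against 3.54% to 5.03% elsewhere. Its HPC library had counts in 10620 genes, against 12778 to 15002 in the other libraries. Counts of genes called in HPC against LPC, and in pair 1 against pair 3, are therefore given for the members with and without pair 2. Fold changes of HPC against LPC without it are given for some genes only. Of the melanoma line markers, all 7 were tested, and their summed level was 10620 to 20730 CPM in pairs 1 and 3 and 4443 and 6189 CPM in the HPC and LPC libraries of pair 2. CPM here means the count scaled to a library size common to all libraries, after TMM normalization. The TMM factors were 0.452 and 0.736 in the HPC and LPC libraries of pair 2, and 1.31 to 1.33 elsewhere. The resulting library sizes were 1718200 and 3498080 in pair 2, against 6050990 to 9526460 elsewhere, so CPM levels of pair 2 depend on this scaling. Of the markers of other cell types, 2 of 6 immune, 3 of 6 fibroblast, 2 of 4 endothelial and 3 of 6 epithelial genes have a row, and 1 of these, *Cdh1*, was tested. Summed levels were 0 to 7.57 CPM for immune, 0.935 to 33.2 for fibroblast, 0 to 11.6 for endothelial and 0.496 to 15.1 for epithelial markers, the highest value of each list lying in the HPC library of pair 2. Immune markers were both at 0 in the LPC libraries of pairs 2 and 3, and endothelial markers were both at 0 in 3 libraries. The part of such markers in the results for pair 2 was not tested.

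The promoters and transcript ends of the genes the results turn on are shown first, because *Fos*, *Atf3* and *Jun* had unlike patterns across the libraries. The sequences below are the 250 bases before the start of each gene from RefSeq (build GRCm38.p6), 5′ to 3′ on the gene's strand, with capitals marking TGACG on either strand, the core letters of the cyclic AMP response element bound by CREB and ATF proteins, and TATAAA on the gene's strand. *Fos* lies at chr12:85473640-85473889 on the + strand, *Atf3* at chr1:191183334-191183583 on the - strand and *Jun* at chr4:95052223-95052472 on the - strand. The RefSeq start of *Atf3* lies inside the longer span that GENCODE gives the gene.
Fos: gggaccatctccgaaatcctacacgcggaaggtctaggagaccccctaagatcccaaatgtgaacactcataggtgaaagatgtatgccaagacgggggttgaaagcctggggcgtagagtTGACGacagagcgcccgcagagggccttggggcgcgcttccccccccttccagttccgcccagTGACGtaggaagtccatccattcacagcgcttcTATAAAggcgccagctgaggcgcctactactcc
Atf3: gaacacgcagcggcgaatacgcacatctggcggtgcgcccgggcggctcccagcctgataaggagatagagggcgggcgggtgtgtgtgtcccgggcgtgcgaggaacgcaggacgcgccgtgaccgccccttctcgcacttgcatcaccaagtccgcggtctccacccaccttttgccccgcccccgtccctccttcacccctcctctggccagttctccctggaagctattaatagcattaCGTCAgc
Jun: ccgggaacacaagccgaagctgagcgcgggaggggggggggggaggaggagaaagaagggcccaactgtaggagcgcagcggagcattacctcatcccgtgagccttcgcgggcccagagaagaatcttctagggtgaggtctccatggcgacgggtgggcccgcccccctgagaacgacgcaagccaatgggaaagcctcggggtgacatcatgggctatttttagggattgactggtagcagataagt
*Fos* held TGACG at -129 and -66 and TATAAA at -33, counting from -1 at the last base before the start. *Atf3* held CGTCA, the same letters on the other strand, at -7. *Jun* held neither motif in this window. Of the 10 genes, 8 have a promoter in the table used, and TGACG on either strand, overlapping matches allowed, was in 5 of them (*Fos*, *Fosb*, *Junb*, *Dusp1* and *Atf3*), against 17.8% of 32851 promoters of the same length. The full palindrome TGACGTCA was in *Dusp1*, at -143, where it overlaps 2 matches of the shorter motif, and in 1.55% of all promoters. The CArG box, bound by the serum response factor, was in 0 of the 8 windows and in 1.47% of all, and the AP-1 motif TGANTCA was in 0 of the 8 and in 6.75%. These matches describe letters in a window and say nothing of binding. Sites further out than 250 bases, and variants of these motifs, were not searched for, so absence here is not absence from the gene.

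Short-lived mRNAs often carry AU-rich elements near their end, and the libraries read transcripts from that end. In the last 500 bases of the longest protein-coding GENCODE vM21 transcript of each gene, the nonamer TTATTTATT, a target site of the decay factor ZFP36, was in *Fos* and *Dusp1*, 2 of the 10 genes, and in 2.83% of 21405 genes. The pentamer ATTTA, which the nonamer contains, was in 8 of the 10, with 5 copies in *Ier3* and 4 in *Fos*, but also in 51.5% of all genes. The nonamer sites began 161 bases before the transcript's end in *Fos* and 299 before it in *Dusp1*, and are in capitals here.
Fos site: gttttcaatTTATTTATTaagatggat
Dusp1 site: tttttacctTTATTTATTtttgtgtag

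In none of the 9 genes tested was the difference between HPC and LPC larger than the spread between replicates. In edgeR's quasi-likelihood test, 0 of the 9 passed an adjusted p under 0.05, where 0 of 11324 genes (0%) did, and 0 of the 9 had an unadjusted p under 0.05, against 38 genes (0.336%). DESeq2 called 0 genes too, with 134 at an unadjusted p under 0.05. Values of the HPC and LPC libraries overlapped in each of the 9 genes, while they did not overlap in 5.74% of all genes tested. Their median log2 fold change was 0.11, with 5 of 9 higher in HPC, and the median over all genes tested was -0.04. Within the pairs, *Jund* was higher in the HPC library of every pair (12.9% of all genes tested were), *Atf3* was lower in every pair (17.2% were), and the other 7 changed direction between pairs.

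**Figure D1:**
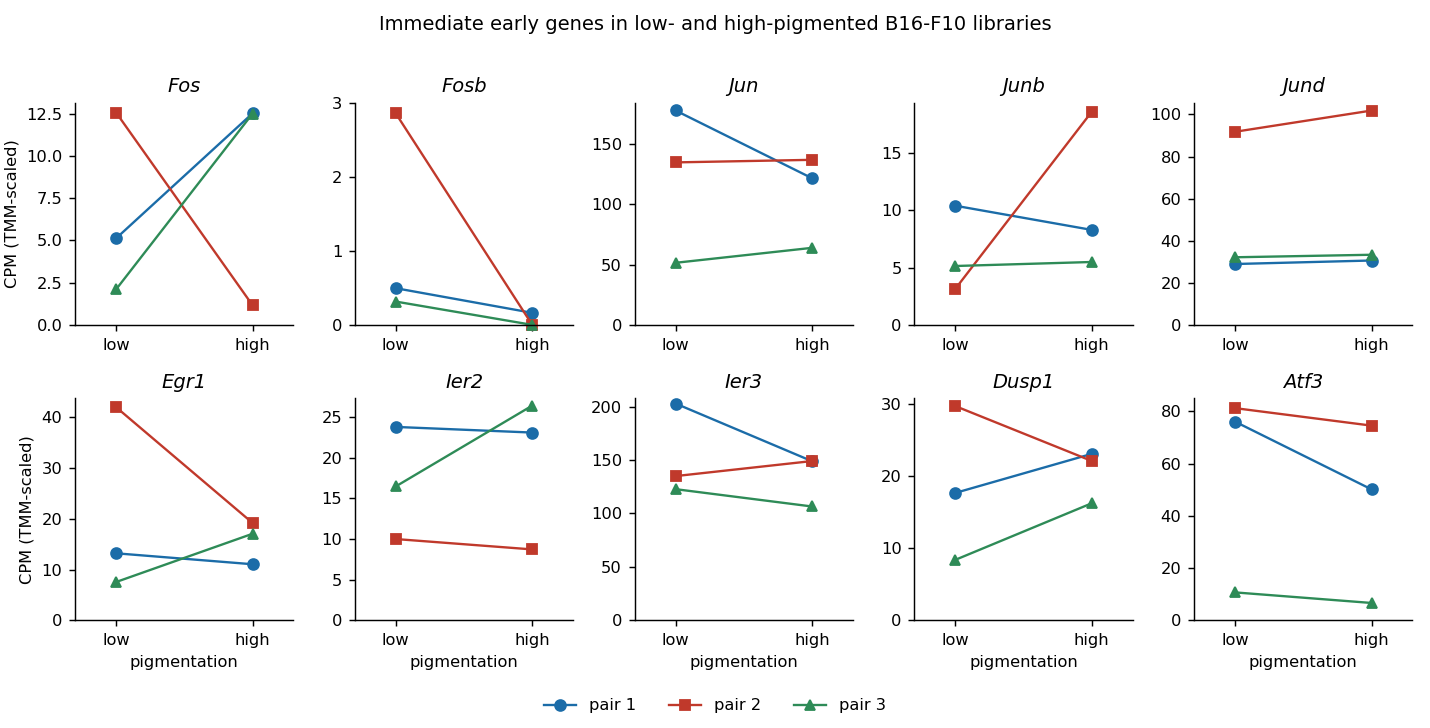
Level of each of the 10 genes (CPM on TMM-scaled library sizes, linear axis from 0) in the LPC and HPC library of each pair, with a line joining the 2 libraries of a pair. The *Atf3* and *Jun* lines of pair 3 lie below those of pairs 1 and 2, and the *Fos* line falls in pair 2 and rises in pairs 1 and 3.

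*Fos*, at chromosome 12, 85473890 to 85477273 in GRCm38, encodes the partner through which AP-1 gains its strongest activating form, and it showed the widest swings in opposite directions. It had 12.5, 1.16 and 12.5 CPM in the HPC libraries of pairs 1, 2 and 3 (77, 2 and 107 counts). The LPC libraries had 5.12, 12.6 and 2.10 CPM (31, 44 and 20 counts). The HPC library was thus the higher one in pairs 1 and 3 and the lower one in pair 2, and the groups overlapped. The ratio of high to low was 2.45 in pair 1, with a 95% interval from counting error (exact binomial) of 1.59 to 3.84, and 5.96 in pair 3 (3.67 to 10.1). In pair 2 it was 0.0925 (0.0109 to 0.355), resting on 2 counts in the HPC library. Such intervals cover counting error only and compare libraries, not conditions. Means were 8.73 ± 6.56 CPM in HPC and 6.60 ± 5.39 CPM in LPC (SD, n = 3 each). The log2 fold change was 0.44 ± 1.09 (SE; edgeR, adjusted p 0.9996).

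The *Fos* result depended on pair 2. With pair 2 left out and the pair as a term, *Fos* was higher in HPC by 1.90 ± 0.46 on the log2 scale (edgeR, adjusted p 0.0397), and it was the single member of the 9 among 155 of 11906 genes called (1.3%). An unadjusted p under 0.05 was found there in 4 of the 9, against 12.1% of all genes. Of these, *Fos* and *Dusp1* were higher in HPC, and *Ier3* and *Atf3* were lower. With the pair as a term and all 6 libraries, the change of *Fos* was 0.59 ± 1.51 (edgeR, adjusted p 0.938). In that fit 0 of the 9 and 0 of 11324 genes (0%) passed, and 0 of the 9 had an unadjusted p under 0.05, against 213 genes (1.88%). With the pair term and limma-voom's sample weights the change of *Fos* was 1.70, and 0 of the 9 were among 34 genes called. Under these weights 3 of the 9, *Fos*, *Atf3* and *Ier3*, had an unadjusted p under 0.05, against 11.6% of all genes. The 2 retained pairs leave 1 residual degree of freedom among libraries, the spread being borrowed across genes, and the pair with the opposite direction is the one left out.

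*Fosb*, a second Fos family gene, was close to the detection limit. Its counts were 1, 0 and 0 in the HPC libraries of pairs 1, 2 and 3, against 3, 10 and 3 in the LPC ones. Each LPC library thus held more counts than its partner, but 5 of the 6 values were at or under 3 counts, the limit that a count of 0 allows. That limit corresponds to 0.315 to 1.75 CPM in these libraries, and no fold change is given.

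The Jun family supplies the partner of Fos proteins in AP-1. *Jun*, at chromosome 4, 95049034 to 95052222, had 122, 137 and 63.8 CPM in the HPC libraries of pairs 1, 2 and 3, against 178, 135 and 51.4 CPM in the LPC ones. Both libraries of pair 3 lay below the other 4, and the groups overlapped. Its means were 107 ± 38.5 CPM in HPC and 121 ± 64.2 CPM in LPC (SD, n = 3 each). The log2 fold change was -0.18 ± 0.54 (SE; edgeR, adjusted p 0.9996). The ratio of high to low was 0.684 in pair 1 (counting interval 0.622 to 0.752), 1.02 in pair 2 (0.865 to 1.19) and 1.24 in pair 3 (1.10 to 1.41), so the first and the last pair differed in opposite directions by more than counting error.

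*Jund*, the Jun gene with the most constant expression in many cell types, was flat within pairs and far apart between them. Levels were 30.6, 102 and 33.3 CPM in the HPC and 28.9, 91.8 and 32.1 CPM in the LPC libraries of pairs 1, 2 and 3. Only the libraries of pair 2 were high, and the ratio of high to low was 1.06, 1.11 and 1.04 in pairs 1, 2 and 3, each with a counting interval that included 1. *Junb* had 8.30, 18.6 and 5.49 CPM in HPC and 10.4, 3.14 and 5.14 CPM in LPC libraries. Its single large difference was in pair 2, where the HPC library was 5.92 times higher (counting interval 2.91 to 13.02, from 32 and 11 counts). Pair 2 was thus the exception for both *Fos* and *Junb*, in opposite directions. The log2 fold changes were 0.11 ± 0.66 for *Jund* and 0.77 ± 0.88 for *Junb* (SE; edgeR, adjusted p 0.9996 each). The counts of these 3 genes carry an uncertainty: exons of *Junos*, *Prdx2* and *Gm11175* overlap *Jun*, *Junb* and *Jund* on the opposite strand, and the sources used here do not say whether counting used the strand.

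*Egr1* encodes a zinc-finger transcription factor that ERK signalling induces through the serum response factor. Its levels were 11.1, 19.2 and 17.1 CPM in the HPC and 13.2, 42.0 and 7.56 CPM in the LPC libraries of pairs 1, 2 and 3. The HPC library was higher in pair 3, by a ratio of 2.26 (counting interval 1.69 to 3.04), and lower in pair 2, by a ratio of 0.457 (0.303 to 0.670). In pair 1 the ratio was 0.837 and its interval (0.597 to 1.17) included 1. *Egr1* thus shared with *Fos* a higher HPC value in pair 3 and a lower one in pair 2, and differed from it in pair 1. Its log2 fold change was -0.41 ± 0.74 (SE; edgeR, adjusted p 0.9996).

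*Dusp1* encodes a phosphatase that inactivates MAP kinases. It had 23.1, 22.1 and 16.3 CPM in the HPC and 17.7, 29.7 and 8.40 CPM in the LPC libraries. The HPC library was higher in pairs 1 and 3, by ratios of 1.31 (counting interval 1.01 to 1.70) and 1.94 (1.46 to 2.58), and had a ratio of 0.744 (0.499 to 1.09) in pair 2. Its log2 fold change was 0.14 ± 0.61 (SE; edgeR, adjusted p 0.9996), and 0.65 ± 0.30 with the pair term and without pair 2 (adjusted p 0.381). An exon of *Ergic1* overlaps *Dusp1* on the opposite strand, with the same limit as for the Jun genes.

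*Ier2* and *Ier3* are response genes of a different kind, encoding a nuclear regulator and a membrane-associated protein linked to cell survival. *Ier2* had 23.1, 8.73 and 26.4 CPM in the HPC and 23.8, 10.0 and 16.5 CPM in the LPC libraries, with the lowest values in pair 2. *Ier3*, at chromosome 17, 35821684 to 35822923, had 149, 149 and 107 CPM in the HPC and 203, 135 and 122.7 CPM in the LPC libraries. Its ratio of high to low was 0.734 in pair 1 and 0.868 in pair 3, with counting intervals below 1 (0.673 to 0.800 and 0.795 to 0.947), and 1.10 in pair 2 (0.945 to 1.29). The log2 fold changes were 0.22 ± 0.64 for *Ier2* and -0.19 ± 0.38 for *Ier3* (SE; edgeR, adjusted p 0.9996 each).

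*Atf3*, at chromosome 1, 191170296 to 191218039, encodes a stress-induced factor of the ATF family that can pair with Jun proteins. Its HPC libraries had 50.1, 74.5 and 6.66 CPM in pairs 1, 2 and 3 (308, 128 and 57 counts). The LPC libraries had 76.0, 81.2 and 10.7 CPM (460, 284 and 102 counts). The LPC library was the higher one in every pair, by 1.52 times in pair 1 (counting interval 1.31 to 1.76), 1.09 times in pair 2 (0.882 to 1.35) and 1.61 times in pair 3 (1.15 to 2.26), yet the groups overlapped because pair 3 lay far below the others. Its log2 fold change was -0.36 ± 0.93 (SE; edgeR, adjusted p 0.9996), -0.47 ± 0.25 with the pair term and all 6 libraries (adjusted p 0.927), and -0.65 ± 0.22 with the pair term and without pair 2 (adjusted p 0.181).

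**Figure D2:**
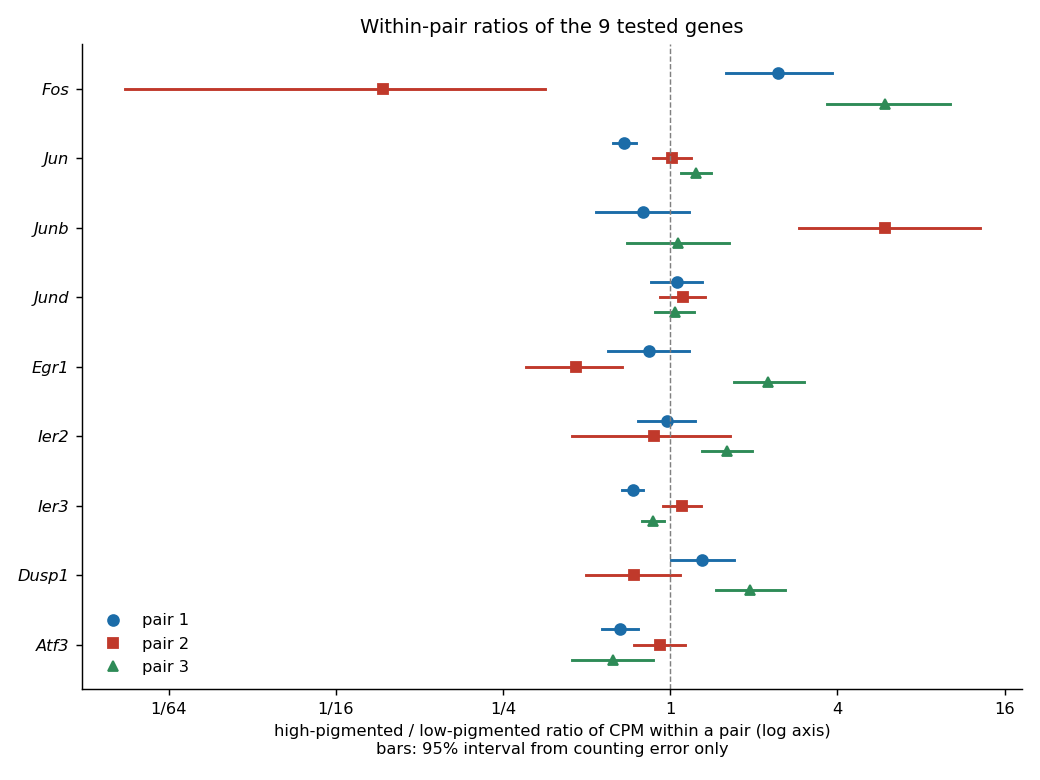
Ratio of the HPC to the LPC library within each pair for the 9 tested genes (log axis, dashed line at 1), with 95% intervals from counting error only. *Fos* lies above 1 in pairs 1 and 3 and below it in pair 2, *Junb* departs from 1 in pair 2 (5.92), and the 3 *Jund* intervals include 1.

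The counting interval of the ratio left out 1 in 5 of the 9 genes in pair 1, in 3 in pair 2 and in 7 in pair 3, where it did so in 41.6%, 67.6% and 51.9% of all genes tested. Differences beyond counting error between the libraries of a pair were thus common among all genes. These intervals treat each read as an independent count, and no molecular identifiers are mentioned, so they may be too narrow. The direction in pairs 1 and 3 matched in 5 of the 9 and in 57.9% of all genes tested. In pair 3 *Fos*, *Jun*, *Egr1*, *Ier2* and *Dusp1* were higher in the HPC library while *Ier3* and *Atf3* were lower. The median difference of the 9 genes, high minus low on the log2 scale, was -0.25, -0.12 and 0.31 in pairs 1, 2 and 3, beside 0.016, -0.205 and -0.002 over all genes tested.

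The share of variation between pairs was larger than that between pigment groups in 8 of the 9 genes, *Junb* being the exception. With 3 pairs and 2 groups, pairs take the larger share from noise alone on average, and this count was not taken over all genes. The split of the sum of squares of log2 CPM over the 6 libraries put 99.6% of the variation of *Jund*, 96.8% of that of *Atf3*, 91.9% of that of *Jun* and 89.1% of that of *Ier2* between pairs. The share between pigment groups was at most 8.7% in 8 of the 9 genes and 22.4% in *Junb*, which had 16.9% between pairs and 60.7% in the remainder. *Fos* also had a low share between pairs, with 9.4% between pairs, 0.5% between pigment groups and 90.1% in the remainder, which is the change of the high-to-low difference from pair to pair. The median share between pairs was 73.6% over the 9 genes and 62.8% over all genes tested, so a large share between pairs is common in these libraries. The median share between pigment groups was 1.4% over the 9 genes and 10.2% over all genes tested.

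**Figure D3:**
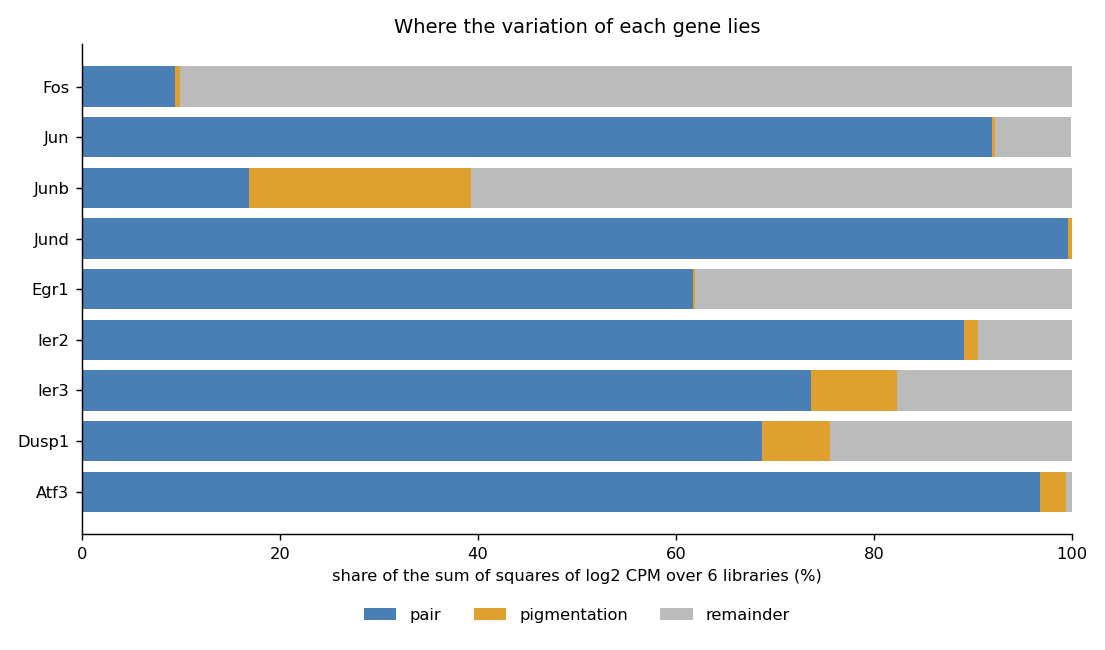
Share of the sum of squares of log2 CPM over the 6 libraries that lies between pairs, between pigment groups and in the remainder, for each tested gene (%). The pair takes 99.6% in *Jund* and 96.8% in *Atf3*, and 9.4% in *Fos*.

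A test of the 2 pair terms, with the pigment group as covariate, asked whether libraries of different pairs differ. In edgeR, 0 of the 9 genes and 0 of 11324 genes (0%) passed, and the unadjusted p was under 0.05 in 3 of the 9, *Atf3*, *Jund* and *Jun* (adjusted p 0.0764, 0.0910 and 0.151), against 22.5% of all genes. With limma-voom, 953 genes passed, *Atf3* and *Jund* among them (adjusted p 0.0259 and 0.0357). Without either library of pair 2, that pair keeps a single library, which its own term fits exactly. Counts of genes passing in such fits are not given.

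Pair 1 against pair 3 compares libraries of like composition. *Atf3* was higher in pair 1 by 2.86 ± 0.33 on the log2 scale and *Jun* by 1.37 ± 0.30 (SE; edgeR, 6 libraries, adjusted p 0.115 and 0.283). In this fit 0 of the 9 and 0 of 11324 genes (0%) passed, and 2 of the 9, the same *Atf3* and *Jun*, had an unadjusted p under 0.05, against 8.37% of all genes. When pair 2 was left out, 3 of the 9 passed, against 25.5% of 11906 genes: *Atf3* at 2.86 ± 0.23 (adjusted p 4.81e-10), *Jun* at 1.36 ± 0.19 (1.89e-05) and *Ier3* at 0.61 ± 0.15 (0.00326). All 3 were higher in pair 1, as were 13.5% of the genes tested with 6 libraries, while 12.2% were lower. The other 6 did not pass: *Junb* had 0.81, *Dusp1* 0.78, *Fos* 0.55, *Ier2* 0.16, *Egr1* 0.08 and *Jund* -0.14, with adjusted p from 0.0634 to 0.916. The contrast is drawn almost wholly from the libraries of pairs 1 and 3, so its values move little with pair 2 by design. The SE of *Atf3* and *Jun* fell from 0.33 to 0.23 and from 0.30 to 0.19 without pair 2. The share of these genes that passed was near the share of all genes.

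**Figure D4:**
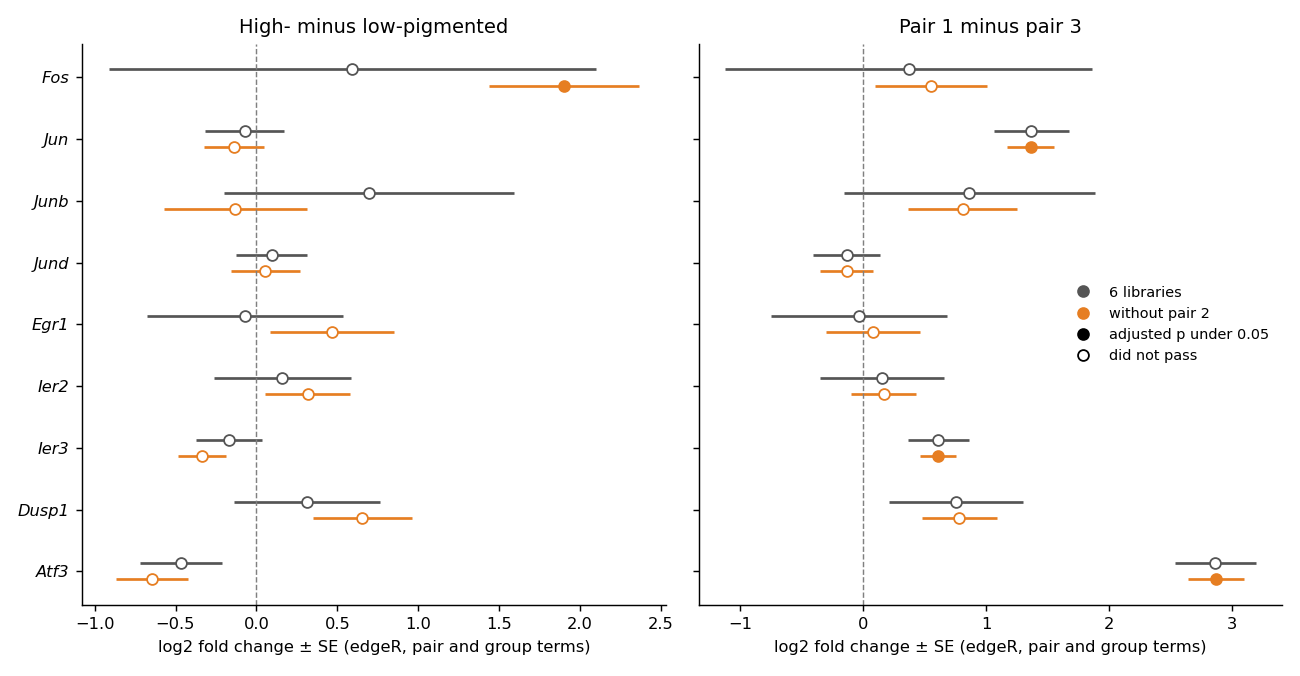
Log2 fold change ± SE from edgeR with pair and group terms for the 9 tested genes, high minus low pigmentation (left) and pair 1 minus pair 3 (right), with 6 libraries (grey) and without pair 2 (orange). Filled points passed an adjusted p under 0.05: *Fos* on the left (1.90) and *Atf3* (2.86), *Jun* (1.36) and *Ier3* (0.61) on the right, each without pair 2.

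In 4 genes, *Jun*, *Ier3*, *Dusp1* and *Atf3*, the libraries of pair 3 were the lowest 2 of the 6, a pattern found in 8.71% of all genes tested and picked out here after the values were seen. In *Jund* and *Egr1* the libraries of pair 2 were the highest 2, and in *Ier2* the lowest, patterns not counted over all genes. The members thus did not rise and fall as 1 block across the libraries.

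Ratios of 2 genes counted in the same library do not depend on scaling between libraries. *Jun* had 3.97 and 6.14 counts for each *Jund* count in the HPC and LPC libraries of pair 1. In pair 2 the ratios were 1.34 and 1.47, and in pair 3 they were 1.92 and 1.601. Both values of pair 1 lay above the other 4, with counting intervals of 3.38 to 4.69 and 5.23 to 7.25. *Atf3* relative to *Jun* was 0.412 and 0.428 in pair 1, 0.545 and 0.603 in pair 2, and 0.104 and 0.208 in pair 3, so pair 3 was low for *Atf3* also when measured against *Jun*. *Fos* relative to *Jun* ran from 0.00851 in the HPC library of pair 2 to 0.196 in that of pair 3. For *Fos*, the HPC library was higher by this measure in pairs 1 (0.103 against 0.0288) and 3 (0.196 against 0.0408) and lower in pair 2 (0.00851 against 0.0934).

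**Figure D5:**
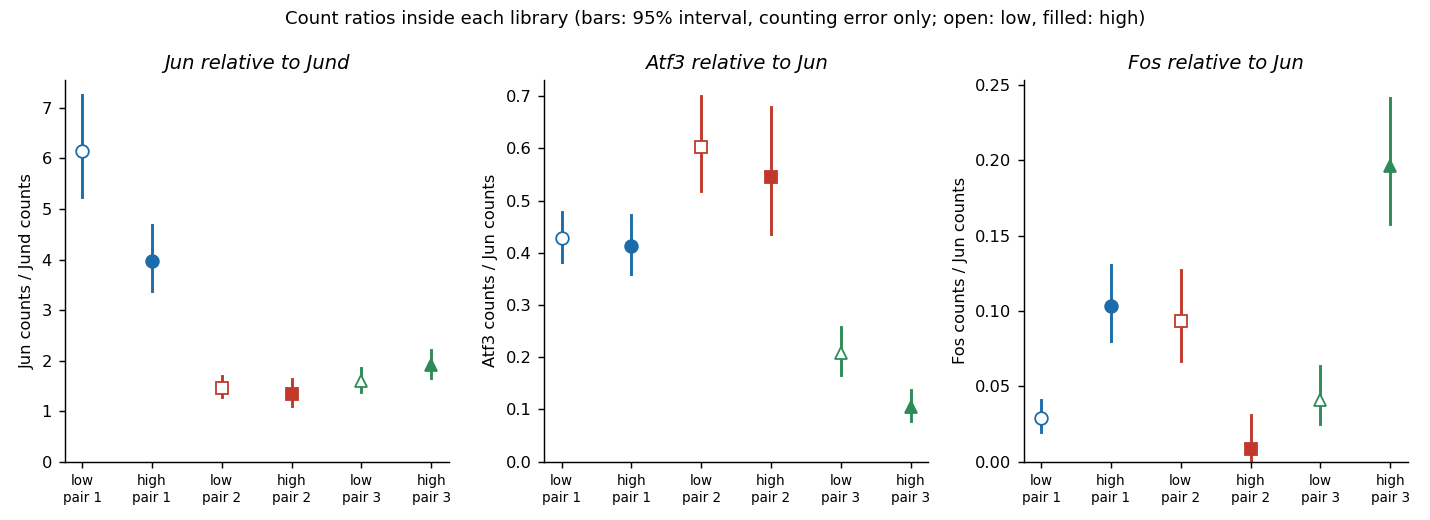
Counts of *Jun* per count of *Jund*, of *Atf3* per count of *Jun* and of *Fos* per count of *Jun* in each library (linear axes from 0, bars 95% exact binomial intervals from counting error). Pair 1 is highest for *Jun* relative to *Jund* (3.97 and 6.14), pair 3 is lowest for *Atf3* relative to *Jun* (0.104 and 0.208), and *Fos* changes order between pairs.

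Other genes of the response were examined as lists. Of 40 other immediate early genes, 38 have a row and 35 were tested. In HPC against LPC 0 of the 35 passed in edgeR, 0 had an unadjusted p under 0.05, and 17 were higher in HPC, with a median log2 fold change of -0.04. The 3 with the highest mean level were *Klf6*, a zinc-finger factor, *Ppp1r15a*, which restores translation after stress, and the survival gene *Mcl1*, with log2 fold changes of 0.05, -0.27 and -0.13. *Cyr61*, a secreted matrix protein and target of serum and YAP signalling, had the smallest p, with 37.1, 23.9 and 9.70 CPM in the HPC and 122.8, 103 and 11.7 CPM in the LPC libraries (log2 fold change -1.75 ± 0.85, unadjusted p 0.0726). It was lower in the HPC library of every pair, with overlapping groups. Without pair 2 and with the pair term, 1 of the 35 was called, beside 1.3% of all genes. It was the nuclear receptor gene *Nr4a3*, which was 1.00 higher on the log2 scale in HPC (edgeR, adjusted p 0.0433).

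Between pairs 1 and 3, without pair 2, 13 of the 35 passed, 6 higher and 7 lower in pair 1, beside 25.5% of all genes tested in that fit. Of the genes tested with 6 libraries, 13.5% were called higher and 12.2% lower, so calls in both directions were common among all genes. Genes named from here to the end of this paragraph were chosen after their values were seen. The higher ones included *Plk2* (3.17), *Cyr61* (2.71), *Ier5* (1.92) and *Ppp1r15a* (1.16, log2 fold changes). The lower ones included *Hes1* (-2.22), *Nr4a3* (-2.14) and *Nr4a1* (-1.49), the last pair being orphan nuclear receptors that many of the same signals induce. The genes named here thus did not share a direction between these pairs: *Atf3* and *Jun* went with *Cyr61* and *Ier5*, and against the *Nr4a* genes. As all genes were divided in a like way, this is not read as a trait of immediate early genes.

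Other AP-1 family genes numbered 17, of which 16 have a row and 12 were tested. In HPC against LPC 0 of the 12 passed, with 7 higher and a median of 0.11. The most abundant were *Atf4*, *Mafg* and *Maf*, with log2 fold changes of -0.17, 0.13 and 0.76, and *Maff* had the smallest p (-2.58 ± 1.29, unadjusted p 0.0799), with 0 counts in the HPC library of pair 2 and groups that did not overlap. Without pair 2, 1 of the 12 was called, beside 1.3% of all genes: the factor gene *Atf5* was lower in HPC, by -0.75 (edgeR with the pair term, adjusted p 0.0102). Comparing pair 1 with pair 3 without pair 2, 4 of the 12 passed, beside 25.5% of all genes: *Fosl2*, a Fos family gene, was higher in pair 1 (1.46), and *Maf* (-2.22), *Atf5* (-1.12) and *Atf4* (-0.33) were lower.

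Genes listed as feedback genes of the ERK pathway, some of which ERK activity induces, numbered 18, of which 14 were tested. In HPC against LPC 0 of the 14 passed, with 6 higher and a median of -0.13. *Phlda1*, *Dusp6* and *Dusp2* were the most abundant, with log2 fold changes of 0.27, -0.19 and 0.30. *Etv1* had the smallest p (2.08 ± 1.24, unadjusted p 0.132), with 31.4 CPM in the HPC library of pair 2 and 0.572 to 5.73 CPM elsewhere. Between pairs 1 and 3, without pair 2, 3 of the 14 were higher in pair 1 and 3 lower, beside 13.5% and 12.2% of all genes. The higher ones were *Dusp8*, *Dusp4* and *Dusp16* (1.07, 1.06 and 0.94), and the lower ones *Dusp2*, *Spred1* and *Dusp6* (-1.52, -0.73 and -0.46).

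Kinases and transcription factors that act upstream of the immediate early genes were listed too. Of 30 listed, 28 were tested, 0 passed in HPC against LPC, 18 were higher, and the median was 0.05. The kinase genes *Mapk3* and *Map2k3* had log2 fold changes of -0.13 and 0.10, while *Crem* had the smallest p (0.83 ± 0.61, unadjusted p 0.208). Comparing pair 1 with pair 3 without pair 2, 1 of the 28 was higher and 5 were lower in pair 1, beside 13.5% and 12.2% of all genes. *Map2k3* was higher (0.41), and *Srf*, *Mapkapk2*, *Mapk3*, *Mkl2* and *Elk4* were lower (-0.80, -0.64, -0.63, -0.58 and -0.57). *Srf*, which encodes the serum response factor, was thus lower in pair 1, where *Jun* and *Atf3* were higher. Of 13 genes of AU-rich mRNA decay, all tested, 0 passed in HPC against LPC, 4 were higher and the median was -0.14. The most abundant of these, *Pabpc1*, *Cnot6* and *Elavl1*, had log2 fold changes of -0.36, -0.10 and -0.59, and *Elavl1* had the smallest p. When pair 2 was left out, *Elavl1*, whose product binds and stabilises AU-rich mRNAs, was the single gene of the 13 to pass between pairs 1 and 3 (0.63 higher in pair 1), beside 25.5% of all genes.

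Heat shock genes, which dissociation signatures hold alongside the immediate early genes, numbered 13, of which 12 were tested. In HPC against LPC 0 of the 12 passed, with 5 higher and a median of -0.17. The cytosolic chaperone genes *Hsp90ab1* and *Hsp90aa1* had log2 fold changes of -0.51 and -1.48, and the mitochondrial *Hspd1* had one of -0.52. *Hsp90aa1*, which had the smallest p of the list, had 10882 CPM in the LPC library of pair 2 against 1268 to 2256 CPM elsewhere. *Hspd1* was lower in HPC without pair 2 (-0.47, edgeR with the pair term, adjusted p 0.0412). It was the 1 gene of the 12 called there, beside 1.3% of all genes. Between pairs 1 and 3, without pair 2, *Dnajb4*, *Hspd1*, *Bag3* and *Hsp90aa1* were higher in pair 1 (1.05, 0.82, 0.66 and 0.52) and 0 of the 12 were lower, beside 13.5% higher and 12.2% lower of all genes. The inducible *Hspa1b*, named after its values were seen, had 264 and 238 CPM in the HPC and LPC libraries of pair 2 and 3.90 to 15.3 CPM in the other 4. Reads of *Hspa1b* are hard to tell from those of its near-identical neighbour *Hspa1a*. *Hspa1a*, which was not tested, had 14, 14 and 3 counts in the HPC libraries of pairs 1, 2 and 3. Its LPC libraries had 0, 0 and 1 counts. *Jund* shared the order of *Hspa1b*, with pair 2 high, while *Atf3* and *Jun* were high in pairs 1 and 2.

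The genes whose pattern over the 6 libraries was most like the mean of the 9 tested members, among 7775 other genes with a mean of at least 10 CPM, were *Timm22*, *Mrpl14*, *AC165259.1*, *Tpm4* and *Slx1b*, with Pearson r of 0.968 to 0.954. These are the highest of many correlations over 6 points that share pairs, scaling and depth, and are given as a description. *Timm22*, a mitochondrial import gene, had 280, 209 and 106 CPM in the HPC and 252, 277 and 72.5 CPM in the LPC libraries, so that pair 3 was the lowest, as for *Atf3* and *Jun*.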

How the data were processed

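The authors deposited raw counts per gene for the 6 libraries, made with HTSeq per the name and tally rows of the file; the submitters' processing notes name STAR and GRCm38. Versions, annotation and strand setting are not given in the sources used here. Libraries were QuantSeq 3′-end, per the labels' protocols, so counts do not scale with length, and no molecular identifiers are mentioned. Tally rows (no feature, 12.4% to 29.5% of reads; ambiguous, 0.487% to 2.51%) were left out.

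The quasi-likelihood functions of edgeR 4.0.16 (glmQLFit and glmQLFTest, robust) were run in R 4.3.3 after filterByExpr (minimum count 10) and TMM, with Benjamini-Hochberg adjustment over all genes tested, and the fits were tested on simulated data. The simulated libraries varied less than these ones, whose coefficient of variation was 71.6% without and 52% with the pair term. That simulation therefore does not show how the fits perform at the spread seen here. High against low pigmentation was fitted with the 2 groups and no covariate; the comparisons of pairs had group and pair terms. Log2 CPM used a prior count of 2. DESeq2 1.42.0 and limma 3.58.1 were alternatives. Same-suffix libraries deviated together from their group means (correlations 0.466, 0.316 and 0.422, other combinations -0.277 to -0.0206), so the suffix, whose meaning the labels do not state, was taken to pair them. Libraries of a group differed by more than sampling noise (chi-square over its degrees of freedom 63.6 or more).

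All 10 members were named. From each other list the 3 genes with the highest mean CPM and the one with the smallest p were named, while genes named because they passed without pair 2 were chosen after their values were seen. One gene that this rule names is not reported here. Members, lists and tests were chosen with earlier results of these data known. Shared sequence was searched with blastn 2.17.0 (at least 100 bases at 95% identity), which found for the members only the opposite-strand overlaps of *Jun*, *Junb* and *Jund*. Positions are from GENCODE vM21 (GRCm38). Figures were drawn with matplotlib 3.10.9.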

Additional observations from a re-analysis of the deposited data

How the results depend on the processing

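With the replicate block (the pair as a term) 0 genes and 0 of the 9 members passed for high against low pigmentation, as without it. With the block and pair 2 left out 155 genes and 1 member (*Fos*) passed, *Junb* turned to -0.13 and *Egr1* to 0.47 on the log2 scale. With limma-voom, the block and sample weights, 34 genes and 0 members passed, with *Junb* at -0.053 and *Egr1* at 0.49. Across pairs, DESeq2 size factors gave 18 genes and limma-voom 953 genes and 2 members. Between pairs 1 and 3, limma-voom gave 130 genes, 1 member (*Atf3*) and *Egr1* at 0.14, and leaving out pair 2 gave 3035 genes, 3 members and *Egr1* at 0.076. The cause was not tested. DESeq2, no filter on low counts, and leaving out RP23-81C12.3 with the mitochondrial rRNA rows kept 0 genes and 0 members called for high against low pigmentation.

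Leaving out 1 library at a time also kept both counts at 0 there, but the log2 fold changes ran from 0.021 to 1.301 for *Fos*, 0.14 to 1.35 for *Junb*, -0.54 to 0.22 for *Jun*, -0.66 to 0.84 for *Jund*, -0.80 to 0.60 for *Egr1*, -0.071 to 0.56 for *Ier2*, -0.32 to 0.069 for *Ier3*, -0.20 to 0.65 for *Dusp1* and -0.98 to 0.15 for *Atf3*, so that the last 7 changed sign in at least 1 of these fits. They have no pair term, so that each omission also leaves the pairs unbalanced. With the block, *Junb* and *Egr1* changed sign among the 3 fits, while the other tested members kept theirs. Across pairs the counts ran from 0 to 7433 genes and from 0 to 7 members, the highest without a library of pair 2. Between pairs 1 and 3 they ran from 0 to 3098 genes and from 0 to 3 members, with *Fos* from -0.72 to 2.71, *Junb* from -0.13 to 1.503, *Egr1* from -0.84 to 1.03 and *Ier2* from -0.24 to 0.56. Depth limits *Fosb* and the *Fos* value of the HPC library of pair 2, at 2 counts.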
